A study of Homo sapiens with 6 samples.

Results

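SLITRK6 and 8 other cell surface proteins that are used as antibody or radioligand targets in cancer were examined in LNCaP-AI cells after METTL1 silencing. They are 9 of the 20308 genes in the expression tables. SLITRK6 was chosen by its difference between the same 2 groups of libraries, so its values are given as a description with no test. The other 8, FOLH1, STEAP1, STEAP2, ERBB2, CD276, CD46, PSCA and NECTIN4, were listed for their clinical use, with earlier results of these data known. LNCaP-AI is an androgen-independent derivative of the LNCaP prostate cancer line and serves as a model of castration-resistant prostate cancer (CRPC). The tested cells carried a short hairpin RNA against METTL1, the methyltransferase that adds m7G to RNA (shMETTL1, n = 3), and the control cells carried a scrambled hairpin (shscramble, n = 3). Cells of both groups were labelled as kept under androgen deprivation, and the silencing was stable, with 1 hairpin sequence listed against METTL1. The methods of the study describe its data in general as biological replicates, and the labels of these libraries do not say how cultures were separated, so the p-values measure the spread between these libraries.

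The targets differ in what they do. SLITRK6 is a single-pass protein with leucine-rich repeats, of a family that binds receptor tyrosine phosphatases and organises synapses, and it is known from the inner ear, from neural tissue and from urothelial cancer. FOLH1, better known as PSMA, is a folate hydrolase of the prostate luminal cell that carries radioligands to metastases. STEAP1 and STEAP2 are multi-span proteins of the metalloreductase family and are abundant in prostate epithelium. ERBB2 is the receptor tyrosine kinase HER2, CD276 is the immune checkpoint protein B7-H3, CD46 protects cells from complement as a cofactor for factor I, PSCA is a lipid-anchored protein of the LY6 family, and NECTIN4 is an adhesion molecule of epithelia.

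The hairpin is shown first because it defines the knockdown. Its sense strand matched the 3′ UTR of METTL1 at chr12:57768651-57768671 (minus strand, GRCh38) over all 21 bases, and the capitals mark the 7 bases that pair with bases 2 to 8 of the antisense strand.
METTL1 target of shMETTL1: ggaatgtagtccaTCTAAACt
METTL1 was the 1 gene with the full match among the longest coding transcripts of 18837 genes. SLITRK6 had no copy of the 7-base site TCTAAAC anywhere in its 4321-base transcript, and its longest run shared with the target was 8 bases. STEAP2 had 1 copy in its 3′ UTR, and the other 7 antigens had none. Of all genes searched, 8.99% had a copy in the 3′ UTR.

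The stretch before the RefSeq start site of SLITRK6 is shown beside that of CD46, an antigen whose groups overlapped, to set out how different the 2 promoters are in sequence. Both come from RefSeq (GRCh38.p14), read 5′ to 3′ on the strand of the gene, and cover chr13:85799489-85799669 (minus strand) and chr1:207751788-207752037 (plus strand). The SLITRK6 stretch was shortened to 181 bases so that it ends before the first exon of the transcript ENST00000400286, which starts at 85799488. Another annotated SLITRK6 transcript has its first exon further upstream, at chr13:85806531-85806683, so the printed stretch lies in an intron of that one. Capitals mark 3 motifs searched on both strands, namely GGGCGG (the GC box bound by SP1), TATAAA (the TATA box) and CCAAT.
SLITRK6: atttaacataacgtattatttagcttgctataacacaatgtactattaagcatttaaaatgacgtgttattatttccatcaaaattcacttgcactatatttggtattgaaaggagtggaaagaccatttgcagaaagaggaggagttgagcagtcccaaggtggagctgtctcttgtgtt
CD46: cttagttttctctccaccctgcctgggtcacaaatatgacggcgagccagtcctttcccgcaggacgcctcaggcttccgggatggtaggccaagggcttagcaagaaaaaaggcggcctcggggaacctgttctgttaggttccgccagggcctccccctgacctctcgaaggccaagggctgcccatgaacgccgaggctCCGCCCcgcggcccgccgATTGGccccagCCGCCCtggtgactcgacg
In the full 250 bases before its start SLITRK6 had 37.6% G and C and 3 CpG pairs, and only 8.9% of 35116 RefSeq promoters of that length had less G and C. The printed CD46 window had 64.8% G and C and 19 CpG pairs. None of the 3 motifs was found in the SLITRK6 window, nor in that of STEAP1, which had 64.4% G and C. One of the STEAP2 windows had less G and C than SLITRK6, at 32.8%, and ERBB2 had no GGGCGG, so neither trait is particular to SLITRK6. GGGCGG was found in 42.6% of all promoters, TATAAA in 10.7% and CCAAT in 32.0%, on either strand. The printed CD46 window held 2 copies of GGGCGG and 1 of CCAAT. Another RefSeq window of CD46, at chr1:207751804-207752053, had 67.6% G and C, 21 CpG pairs and 3 copies of GGGCGG. RefSeq windows were used for 7 of the 9 antigens, and these letters say nothing about which factors bind.

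Expression was measured as FPKM, fragments scaled to transcript length and library size, which allows levels of different genes to be set side by side. Each library also had an estimated count per gene. These counts summed to between 3389897 and 3604835 per library and were mostly fractional, as values scaled to a common depth would be, so the depth of sequencing is unknown and no counting interval is given. METTL1 was at 8.35, 10.5 and 8.18 FPKM in shMETTL1, against 13.9, 18.5 and 21.0 FPKM in shscramble. The groups did not overlap, and the shMETTL1 mean was 50.7% of the shscramble mean (exact two-sided permutation p = 0.1, the smallest that 3 against 3 libraries allow). METTL1 had an adjusted p of 0.127 by limma on log2(FPKM + 0.5), and it fell by 1.36 on the log2 scale by edgeR on estimated counts, with an adjusted p of 0.0368. Luminal markers were abundant, and KLK3, which encodes prostate-specific antigen, was at 743 to 878 FPKM in shMETTL1 and 1171 to 1224 FPKM in shscramble. PTPRC, CDH5, CHGA and KRT5, which define immune, endothelial, neuroendocrine and basal cells, were listed at 0 in every library. Other markers of these cells were not all at 0. The 3 basal markers summed to 0 to 1.60 FPKM in shMETTL1 and 0.886 to 4.73 FPKM in shscramble, most of it from KRT14. The 5 neuroendocrine markers summed to 0.411 to 1.10 FPKM in shMETTL1 and 0.280 to 0.383 FPKM in shscramble. SYP did not overlap between the groups, but its mean was below the 0.5 FPKM needed for testing. Among all tested genes, 19.8% had groups that did not overlap. The 6 fibroblast markers summed to 5.31 to 11.2 FPKM in shMETTL1 and 7.94 to 13.7 FPKM in shscramble, nearly all from COL1A1, with DCN and LUM at 0. The 4 immune markers summed to 5.997 to 8.11 FPKM in shMETTL1 and 11.8 to 16.8 FPKM in shscramble, all but a trace from CD68, with CD3E also at 0. CD68, which was tested, also did not overlap between the groups, and its adjusted p was 0.109 by limma. The 4 urothelial markers summed to 2.90 to 6.24 FPKM in shMETTL1 and 1.39 to 4.62 FPKM in shscramble, and the 2 endothelial ones stayed below 0.22 FPKM. The part of these markers in the results was not tested.

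SLITRK6 was much lower in shMETTL1 than in shscramble cells. It was at 70.0, 70.1 and 66.3 FPKM in shMETTL1, against 293.5, 248.9 and 268.1 FPKM in shscramble. All 3 shMETTL1 libraries lay within a few FPKM of each other and far below the lowest shscramble library. The mean was 68.8 ± 2.19 FPKM in shMETTL1 and 270.2 ± 22.4 FPKM in shscramble (SD, n = 3 each), which makes it 3.93-fold lower. The estimated counts gave the same ratio, with 1265, 1269 and 1205 in shMETTL1 and 5319, 4508 and 4855 in shscramble. The log2 fold change was -1.96 from the FPKM and -2.03 from the counts, and it stayed between -2.13 and -1.90 under every alternative setting run. In level, SLITRK6 stood at rank 1149 of the 12156 genes tested in shMETTL1 and at rank 199 in shscramble. It therefore still exceeded 90.5% of tested genes in the silenced cells. In bulk RNA, fewer cells expressing a gene and less RNA per cell cannot be told apart.

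**Figure D1:**
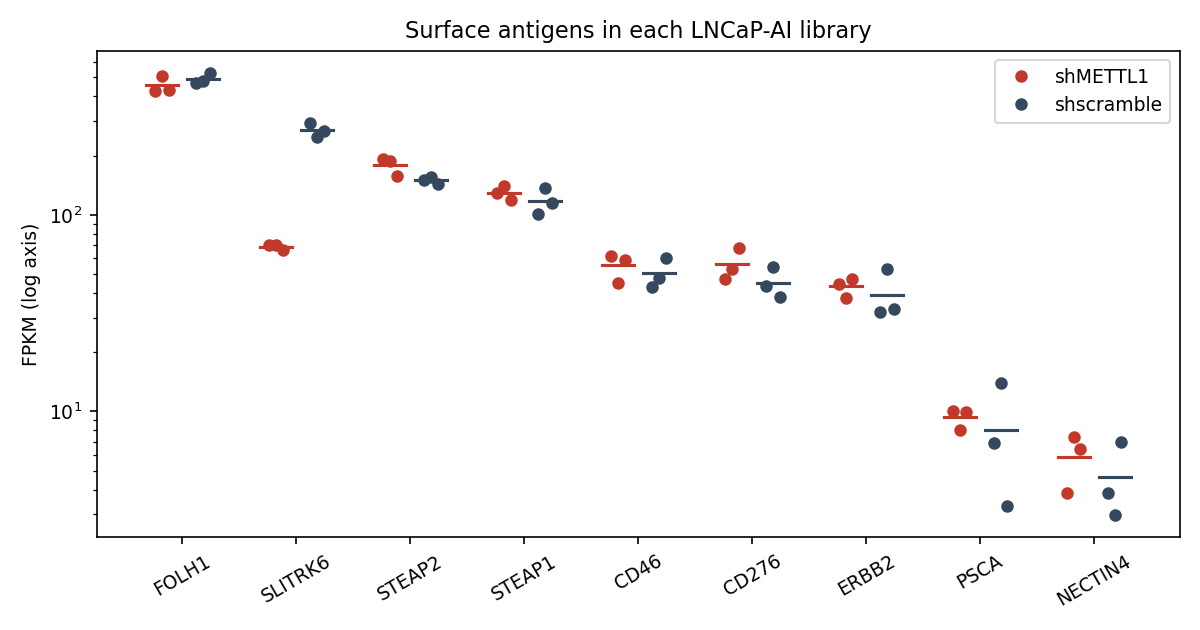
FPKM (log axis) of the 9 antigens in each library, with shMETTL1 in red on the left and shscramble in dark blue on the right of each pair; points are the 3 libraries of a group and bars are their mean. The SLITRK6 libraries lie at 66.3 to 70.1 FPKM in shMETTL1 and at 248.9 to 293.5 FPKM in shscramble, while the points of 7 other antigens overlap and those of STEAP2 lie close together.

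None of the 8 other antigens was called. By limma, on genes with a mean of at least 0.5 FPKM and with Benjamini-Hochberg adjustment over all of them, 15 of 12156 genes (0.123%) had an adjusted p under 0.05, and by edgeR 712 of 11248 (6.33%). At an unadjusted p under 0.05 limma gave 0 of the 8 antigens, edgeR 1 and DESeq2 2, beside 14.2%, 22.8% and 14.8% of all genes tested by the same tools. None had both an unadjusted p under 0.05 and a fold above 1.5, the study's criteria, which 8.97% of all tested genes passed by limma. The median log2 fold change of the 8 was 0.21 by limma, beside 0.02 over all genes tested, and 7 of the 8 were positive, as were 52.5% of all genes. By edgeR the median of the 8 was 0.13, beside -0.0001 over all genes, of which 5623 of 11248 were positive.

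FOLH1 was the most abundant antigen in both groups. It was at 427, 510 and 431 FPKM in shMETTL1, against 471, 482 and 527 FPKM in shscramble, and the groups overlapped. Limma put its log2 fold change at -0.12 (95% interval -0.40 to 0.17, adjusted p = 0.70). The interval reaches a level of 0.757 of shscramble at its lower end, so the FOLH1 data do not cover a loss of the size seen for SLITRK6. Reads of FOLH1 can be shared with FOLH1B, a near copy that is not analysed here.

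The STEAP pair had slightly higher means in shMETTL1, and neither passed the test. STEAP2 was at 193, 188 and 158 FPKM in shMETTL1, against 150, 155 and 144 FPKM in shscramble. It was the 1 antigen besides SLITRK6 whose FPKM groups did not overlap, a pattern found in 19.8% of all tested genes. Its estimated counts did overlap, at 4179, 3790 and 2938 in shMETTL1 and 2862, 3107 and 2977 in shscramble. The log2 fold change of STEAP2 was 0.26, with a 95% interval from -0.04 to 0.55 and an adjusted p of 0.406 by limma. STEAP1 was at 129, 140 and 119 FPKM in shMETTL1, against 101, 136 and 114 FPKM in shscramble. The STEAP1 groups overlapped, with a log2 fold change of 0.15 (95% interval -0.19 to 0.49, adjusted p = 0.679 by limma). STEAP1B, a near copy of STEAP1 that could share its reads, was listed at 0 in 5 libraries.

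The receptor and the immune proteins were expressed at intermediate levels. ERBB2 was at 44.7, 37.9 and 47.3 FPKM in shMETTL1, against 32.0, 52.8 and 33.2 FPKM in shscramble, and the highest value belonged to shscramble replicate 2. Its log2 fold change was 0.17 (95% interval -0.31 to 0.65, adjusted p = 0.745 by limma). CD276 was at 47.3, 53.3 and 67.8 FPKM in shMETTL1, against 43.4, 54.1 and 38.1 FPKM in shscramble. Its FPKM groups overlapped and its estimated counts did not, at 360.4, 392.3 and 475.1 in shMETTL1 and 305, 357 and 299 in shscramble. The share of all genes whose counts do not overlap was not computed, and in FPKM it was 19.8% of tested genes. The log2 fold change of CD276 was 0.31 by limma (95% interval -0.12 to 0.74, adjusted p = 0.491), and by edgeR it was 0.30 with an adjusted p of 0.181. CD46 was at 61.8, 45.2 and 59.0 FPKM in shMETTL1, against 43.1, 47.5 and 60.5 FPKM in shscramble, with overlapping groups. Its log2 fold change was 0.14 (95% interval -0.28 to 0.55, adjusted p = 0.77 by limma).

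PSCA and NECTIN4 were the least abundant and the least precisely measured. PSCA was at 10.01, 8.07 and 9.87 FPKM in shMETTL1, against 6.93, 13.9 and 3.29 FPKM in shscramble, so the shscramble libraries lay on both sides of all 3 shMETTL1 libraries. Its coefficient of variation was 11.6% in shMETTL1 and 67.1% in shscramble. The PSCA log2 fold change was 0.40 by limma, with a 95% interval from -0.55 to 1.35 and an adjusted p of 0.694, and without shscramble replicate 3 it was -0.08. NECTIN4 was at 3.82, 7.37 and 6.40 FPKM in shMETTL1, against 3.85, 2.97 and 7.01 FPKM in shscramble. Its estimated counts did not overlap, at 51.7, 64.5 and 51.8 in shMETTL1 and 30.8, 33.9 and 49.3 in shscramble. In FPKM, 19.8% of all tested genes had groups that did not overlap, and the share for counts was not computed. The NECTIN4 log2 fold change was 0.35 by limma (95% interval -0.46 to 1.16, adjusted p = 0.683) and 0.51 by edgeR (adjusted p = 0.272). For both genes the interval includes a change of more than 2-fold upwards, which these libraries cannot tell from no change.

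**Figure D2:**
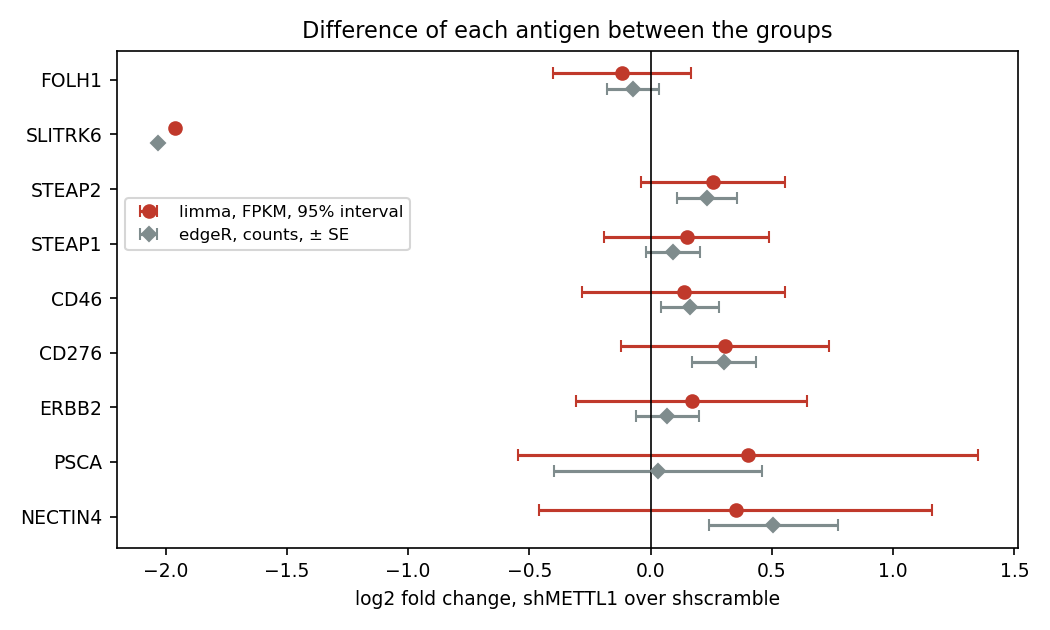
Log2 fold change, shMETTL1 over shscramble, of each antigen by limma on FPKM (circles, 95% interval) and by edgeR on estimated counts (diamonds, ± SE); SLITRK6, which was chosen for its difference, has no interval. SLITRK6 lies near -2.0, and the limma intervals of the 8 others include 0, from the narrow one of FOLH1 (-0.40 to 0.17) to the wide one of PSCA (-0.55 to 1.35).

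The order of the antigens by level differed between the groups mainly in the place of SLITRK6, which was chosen for its difference between them. In shMETTL1 the order by mean FPKM was FOLH1 (456), STEAP2 (180), STEAP1 (129), SLITRK6 (68.8), CD276 (56.1), CD46 (55.3), ERBB2 (43.3), PSCA (9.32) and NECTIN4 (5.87). The ranges of SLITRK6, CD276, CD46 and ERBB2 overlapped from neighbour to neighbour, so each is not ordered against its neighbour beyond their spread. SLITRK6, at 66.27 FPKM or more, still lay above all values of CD46 (up to 61.77 FPKM) and ERBB2 (up to 47.26 FPKM). CD276, at 47.29 FPKM or more, lay just above ERBB2. In shscramble SLITRK6 was in place 2, between FOLH1 (493) and STEAP2 (150), and its range touched neither. CD46, CD276 and ERBB2 overlapped there, as did PSCA and NECTIN4. SLITRK6 made up 6.62% to 7.10% of the summed FPKM of the 9 antigens in shMETTL1 libraries and 20.8% to 25.6% in shscramble libraries. The summed FPKM of the 8 others was 898 to 989 in shMETTL1 and 851 to 945 in shscramble.

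A wider list of 50 surface antigen genes gave the setting. Of all 59 genes, 21 had a mean of 10 FPKM or more in shMETTL1 and 20 in shscramble. SLITRK6 had rank 8 of the 59 in shMETTL1 and rank 2 in shscramble. None of the 24 tested genes of the wider list was called by limma, beside 0.123% over all genes. By edgeR 1 of 20 rose and 1 fell, beside 6.33% called over all genes. GPNMB, a melanosomal glycoprotein, was at 25.6, 25.5 and 16.8 FPKM in shMETTL1, against 8.45, 6.16 and 9.69 FPKM in shscramble. Its groups did not overlap, a pattern found in 19.8% of all tested genes. GPNMB rose by edgeR with a log2 fold change of 1.84 (adjusted p = 0.000197), while limma gave an adjusted p of 0.0643. MET, the receptor for hepatocyte growth factor, averaged 2.52 FPKM in shMETTL1 and 5.74 FPKM in shscramble. MET fell by edgeR (log2 fold change -1.19, adjusted p = 0.0158), and limma gave an adjusted p of 0.307. EPCAM, an epithelial adhesion molecule, averaged 145 FPKM in shMETTL1 and 133 FPKM in shscramble, and SLC39A6, a zinc transporter, 124 and 154 FPKM in the same order. Limma gave them adjusted p-values of 0.671 for EPCAM and 0.388 for SLC39A6. The estimated counts of EPCAM went the other way from its FPKM, averaging 616 in shMETTL1 and 669 in shscramble. By edgeR its log2 fold change was -0.18 (adjusted p = 0.467).

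**Figure D3:**
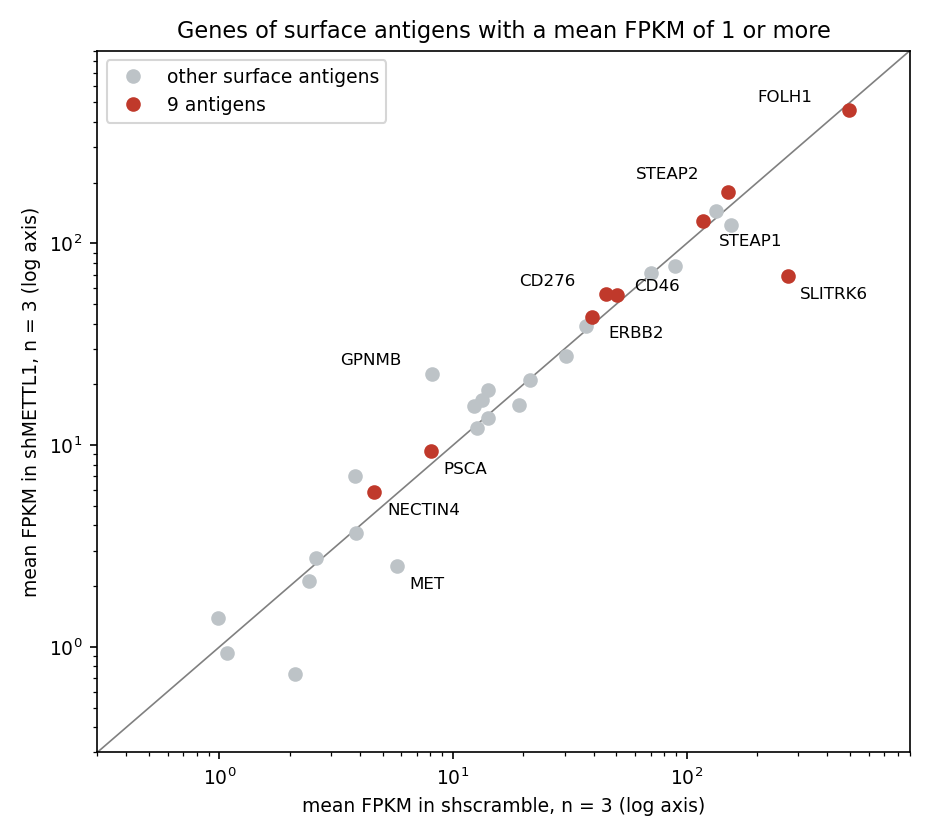
Mean FPKM in shMETTL1 (vertical, log axis, n = 3) against mean FPKM in shscramble (horizontal, log axis, n = 3) of surface antigen genes with a mean of 1 FPKM or more in either group, the 9 antigens in red and the wider list in grey. F3, with a mean of 0 in shMETTL1, falls outside the axes. SLITRK6, which was chosen for its difference, lies at 68.8 and 270.2 FPKM, furthest below the line of equal levels among the 9 antigens.

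Families and partners of the antigens were counted next. None of their 33 tested genes was called by limma, and by edgeR 2 of 30 rose and 0 fell, beside the 6.33% called over all genes. The median log2 fold change of the 33 was 0.13 by limma. TFRC, the transferrin receptor and a structural homologue of FOLH1, was at 59.7, 64.2 and 78.0 FPKM in shMETTL1, against 32.4, 42.1 and 39.7 FPKM in shscramble. It rose by edgeR with a log2 fold change of 1.14 (adjusted p = 0.000197), while limma gave 0.81 with an adjusted p of 0.103. NECTIN1, which binds NECTIN4, rose by edgeR with a log2 fold change of 0.74 (adjusted p = 0.0128), and limma gave 0.38 with an adjusted p of 0.49. NECTIN1 averaged 16.8 FPKM in shMETTL1 and 12.9 FPKM in shscramble.

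SLITRK6 was the only abundant member of its family. The other SLITRK genes of the list were at or near 0 in every library, the highest single value being 0.188 FPKM for SLITRK3 in 1 shscramble library. Of the receptor phosphatases that SLITRK proteins bind, PTPRF was at 66.5 to 71.6 FPKM in shMETTL1 and 58.6 to 72.9 FPKM in shscramble. PTPRS was at 30.5 to 37.3 FPKM in shMETTL1 and 25.8 to 30.3 FPKM in shscramble, and was not called by limma. In the ERBB family, EGFR averaged 27.7 FPKM in shMETTL1 and 30.3 FPKM in shscramble, ERBB3, which pairs with ERBB2, averaged 70.9 and 70.1 FPKM in the same order, and neither they nor any other of the 8 tested members was called by either tool. Among complement regulators CLU, a secreted chaperone that blocks the terminal complex, averaged 101 FPKM in shMETTL1 and 66.7 FPKM in shscramble (adjusted p = 0.332 by limma), and CD55 and CD59 had adjusted p-values of 0.713 and 0.649.

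The 5 genes whose log2(FPKM + 0.5) followed SLITRK6 most closely over the 6 libraries, among 9338 with a mean of at least 5 FPKM, were DNAJC21 (Pearson r = 0.993), FN1 (0.992), L3MBTL3 (0.991), ZDHHC13 (0.991) and FAM91A1 (0.99). FN1, which encodes fibronectin, was at 147, 175 and 164 FPKM in shMETTL1, against 475, 395 and 403 FPKM in shscramble. The libraries of each group lie apart in all 5, so these coefficients mainly restate the gap between the groups, and they are a description of 6 points.

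**Figure D4:**
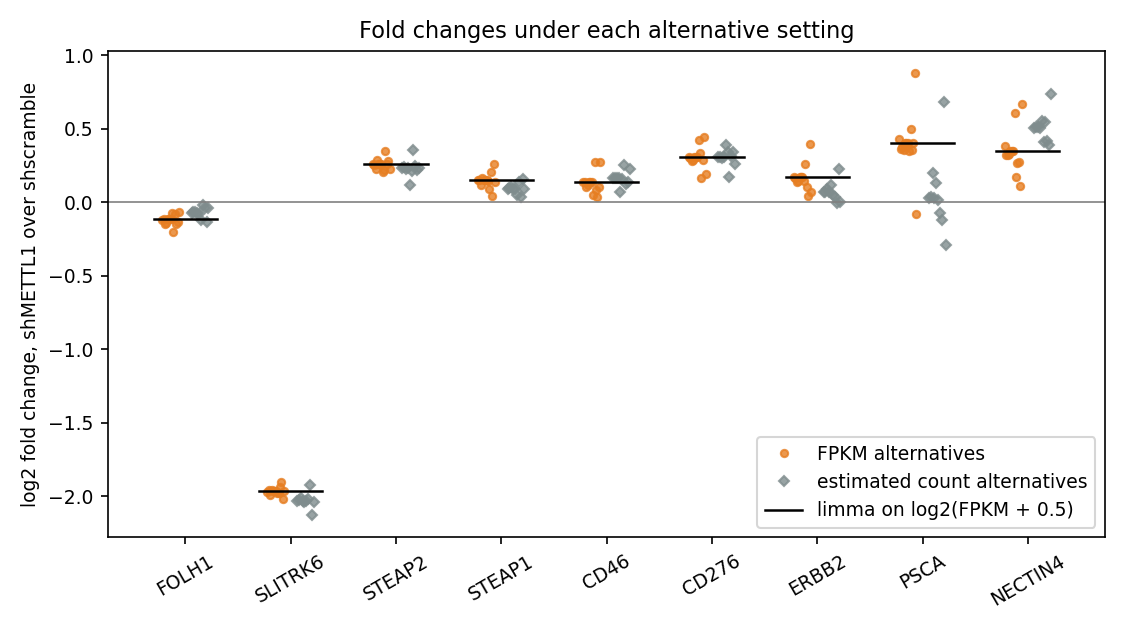
Log2 fold change, shMETTL1 over shscramble, of each antigen under the alternative settings, with FPKM-based ones as circles, count-based ones as diamonds and the limma value on log2(FPKM + 0.5) as a bar. SLITRK6 stays between -2.13 and -1.90, FOLH1 below 0, and PSCA lies on both sides of 0, from -0.29 to 0.88.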

How the data were processed

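RNA-seq libraries of LNCaP-AI cells, 3 shMETTL1 and 3 shscramble, were compared. The authors deposited 1 table per library with FPKM and estimated counts per gene. HISAT2 2.0.4, cutadapt 1.9.3, Cuffdiff, Cufflinks and hg19 appear in the processing notes of the submitters, and annotation, filters and scaling are not given in the sources used here. The deposited estimated counts look scaled to a common depth, which count models do not assume. Positions are those of GENCODE on GRCh38 by Ensembl ID.

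The members and lists were chosen with earlier results of these data known. FPKM were tested as log2(FPKM + 0.5) with limma 3.58.1 (trend, robust) for genes with a mean of at least 0.5. A fold change on that scale understates changes of low genes. Estimated counts were rounded and tested with edgeR 4.0.16 (TMM, quasi-likelihood) and DESeq2 1.42.0 in R 4.3.3. edgeR was first run with its robust option, and the default option was put in its place after the counts of calls of both had been seen, because it gave the count of an earlier analysis of these data. Both are reported. The limma, default edgeR and DESeq2 fits were tested on simulated data, and the other settings were not. The simulated counts were whole numbers with the same spread setting for every gene, unlike the deposited ones. Genes named were the 9 antigens, METTL1, genes called in each list, up to 4 with the smallest p and the 3 most abundant, and the 5 most like SLITRK6, some of which are given only within counts. Replicate numbers did not pair the libraries, since the correlations of same-numbered deviations were -0.00995, 0.102 and -0.0193. No promoter window of FOLH1 or PSCA was used here. One marker of luminal cells is not reported here.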

Additional observations from a re-analysis of the deposited data

How the results depend on the processing

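Of 184 values of the 8 antigens other than SLITRK6 under 23 alternatives none was called, the lowest adjusted p being 0.0883, and 179 kept their sign. ERBB2 turned to -0.0083 by edgeR without shscramble replicate 1. Limma on FPKM with 1 library left out put PSCA between -0.0822 (without shscramble replicate 3) and 0.8806 (without shscramble replicate 2). In edgeR PSCA turned to -0.07 without shMETTL1 replicate 3, -0.12 without shscramble replicate 1 and -0.29 without shscramble replicate 3. SLITRK6 ranged from -2.13 (edgeR without shscramble replicate 2) to -1.90, and took place 4 of the 9 antigens in shMETTL1 against place 2 in shscramble.

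Over all genes limma called 15, edgeR 712, DESeq2 704, limma on log2 CPM 726 and edgeR with its robust option 781, an alternative added after seeing the data. Limma called 4 with genes of any mean FPKM above 0, and 1090 passed the thresholds of the study. Leaving out 1 library gave 3 to 189 calls by limma and 270 to 1989 by edgeR (299, 295 and 328 without shMETTL1 replicates 1, 2 and 3, and 443, 1989 and 270 without the shscramble ones), and both highest counts came without shscramble replicate 2. In the related lists, the wider surface list included, limma called 0 of 53 tested genes, beside 0.123% over all genes. By edgeR 4 of 46 were called, beside 6.33%, and 4 of 53 passed the thresholds of the study, beside 8.97%. The robust edgeR option, DESeq2 and log2 CPM also gave 4 each, and edgeR with 1 library left out gave 2 to 7. Counts this small are not read as a result about the lists. METTL1 was called by edgeR (-1.36, adjusted p = 0.0368; 0.028 with the robust option), DESeq2 (-1.37) and limma on log2 CPM (-1.35), and by edgeR in 3 of the 6 fits with 1 library left out, with values of -1.72, -1.52 and -1.42. The cause of these differences was not tested.

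With the replicate block limma called 6 genes and none of the 8 antigens. The numbers do not pair the libraries.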

Other observations

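Among genes with the 7-base site TCTAAAC in the 3′ UTR, 83 of 1168 tested genes fell by edgeR (7.11%), and among genes without it 325 of 9864 (3.29%). By limma 2 of 1202 and 7 of 10605 fell. The length of the 3′ UTR was not taken into account, and the part of the hairpin sequence in these counts was not tested. SLITRK6 has no such site, and STEAP2, which has 1, was not called.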
